A study of Mus musculus with 16 samples.

Results

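The genes described are 7 chemokine receptors of CD8+ T cells, Cxcr3, Cxcr6, Ccr2, Cx3cr1, Cxcr4, Ccr7 and Ccr9, of 32285 genes listed in any of the 9 CD8+ T cell matrices. The rule that chose them gives their names and uses no measured value, though they were chosen with earlier results of these data known. All 7 are among the 16243 genes present in every matrix. Accepted grafts were DBA/2J kidneys in C57BL/6J (B6) recipients, taken with the recipient spleen at 1, 3 and 24 weeks after transplantation without immunosuppressive drugs. Rejecting grafts were B6 kidneys in DBA/2J recipients, taken with the recipient spleen at 1 week. Naive spleens came from B6 mice that received no graft. All mice were male and wild type, the recipients' own kidneys were removed at surgery, and the labels give C57BL/6J as the strain of every sample, the rejecting ones included. Viable CD45+ cells were sorted and profiled by droplet scRNA-seq, which counts unique molecular identifiers (UMIs), 1 for each captured mRNA molecule, and the authors named the CD8+ T cells.

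Chemokine receptors are G protein-coupled receptors that steer leukocytes along gradients of small secreted proteins. Cxcr3 (receptor for Cxcl9, Cxcl10 and Cxcl11), Cxcr6 (for Cxcl16), Ccr2 (for Ccl2) and Cx3cr1 (for Cx3cl1) are known from effector and memory CD8+ T cells that enter inflamed tissue. Ccr7 (for Ccl19 and Ccl21) keeps naive T cells in lymphoid organs, Cxcr4 (for Cxcl12) acts in bone marrow and lymphoid homing, and Ccr9 (for Ccl25) directs T cells to the thymus and the gut.

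The genes lie at chrX:101731535-101734269 (Cxcr3, minus strand), chr1:128588199-128592293 (Cxcr4, minus), chr9:123806475-123811760 (Cxcr6, plus), chr9:124101950-124113557 (Ccr2, plus), chr11:99144196-99155077 (Ccr7, minus), chr9:123678439-123784330 (Ccr9, plus) and chr9:119901616-120069879 (Cx3cr1, minus) of GRCm38. The promoters of Cxcr6 and Ccr9 are shown because these neighbors on chromosome 9, with 22145 bases between them, moved in opposite directions between spleen and graft, and that of Cxcr3 because it holds the Runx letters at 2 places. Each is 300 bases, from 250 before to 50 after the gene's start in RefSeq on GRCm38.p6, read on the gene's strand, and RefSeq promoters were matched for 6 of the 7 genes. The windows are chr9:123806227-123806526 on the plus strand for Cxcr6, chrX:101734098-101734397 on the minus strand for Cxcr3 and chr9:123766961-123767260 on the plus strand for Ccr9. Capitals mark matches, on either strand, to letters bound by T-box factors (AGGTGT), Runx factors (TGTGGT) or Klf factors (CACCC).
Cxcr6: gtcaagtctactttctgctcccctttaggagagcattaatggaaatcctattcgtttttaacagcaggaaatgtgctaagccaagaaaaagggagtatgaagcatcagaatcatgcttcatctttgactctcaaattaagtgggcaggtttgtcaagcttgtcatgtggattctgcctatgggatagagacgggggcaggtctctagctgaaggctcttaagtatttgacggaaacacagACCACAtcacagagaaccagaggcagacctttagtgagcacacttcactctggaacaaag
Cxcr3: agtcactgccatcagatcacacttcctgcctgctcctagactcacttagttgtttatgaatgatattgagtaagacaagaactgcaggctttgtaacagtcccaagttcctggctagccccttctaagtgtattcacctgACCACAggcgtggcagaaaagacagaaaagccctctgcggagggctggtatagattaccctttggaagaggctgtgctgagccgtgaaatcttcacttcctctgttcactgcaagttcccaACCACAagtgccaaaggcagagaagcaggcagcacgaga
Ccr9: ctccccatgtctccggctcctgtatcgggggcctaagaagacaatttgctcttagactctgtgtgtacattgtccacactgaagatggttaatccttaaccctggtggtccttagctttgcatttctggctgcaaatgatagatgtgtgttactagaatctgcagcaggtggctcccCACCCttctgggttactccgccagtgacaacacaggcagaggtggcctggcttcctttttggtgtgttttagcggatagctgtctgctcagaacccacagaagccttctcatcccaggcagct
The Runx letters stood once in the Cxcr6 promoter and 2 times in that of Cxcr3, each time on the opposite strand, where they read ACCACA. They stood once in that of Cx3cr1 as well. The Klf letters stood in the promoters of Ccr9, Cxcr4 and Cx3cr1, no T-box letters stood in any of the 6, and Ccr2 had none of the 3 motifs. Of 32851 mouse promoters of this length, 13.7% held the T-box letters, 16.8% the Runx letters and 57.5% the Klf letters. These matches describe letters only, and no binding was measured.

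Cells with at least 1 UMI of Cd8a or Cd8b1, the genes of the CD8 coreceptor, numbered 56585 of 72639. This gate kept 77.2% to 96.8% of the cells in the graft matrices of 1 and 3 weeks. It kept 44.2% and 46.8% in the accepted spleens of 1 and 3 weeks, 100% in the rejecting spleen and 96.1% in naive spleen. Fits in all cells of the matrices, without the gate, thus compare groups of unlike makeup. Barcodes told apart 32 libraries, 2 to 5 in each group, with 56 to 7017 gated cells and 153266 to 22782080 UMIs per library. The tags equal the numbers of mice given for accepted recipients and were taken as 1 mouse each. Levels are CPM, the summed UMIs of a gene in a library's gated cells over all UMIs of those cells, scaled by the usual constant, so fewer cells with a receptor and less receptor RNA per cell cannot be told apart in them. Between 1.48% and 2.63% of a library's cells had a barcode that also occurred in another library, at most 21 with any one. Leaving them out changed no call for the 7 genes. Markers of CD8+ T cells (Cd8a, Cd8b1, Cd3d, Cd3e, Cd3g and Trac) were detected in every group. The 24-week libraries ran against the earlier pairs. In them Cxcr6 and Cxcr3 were higher and Ccr7 and Ccr9 lower in the labelled spleen than in the labelled graft, the reverse of 3 weeks, while Cxcr4 overlapped and Ccr2, higher in the labelled spleen, was under both labels below every graft library of 1 and 3 weeks. In addition, 94.6% of the labelled spleen cells but 47.4% of the labelled graft cells passed the gate. Of 20 kidney parenchyma genes, of which 18 were in both matrices, 12 were higher in the labelled spleen and 1 was higher in the labelled graft. Their summed level was 23.9 to 28.0 CPM in the labelled spleen and 4.26 to 12.2 CPM in the labelled graft. The sum differed in direction between the other pairs. It was higher in graft than in spleen at 3 weeks, 20.6 to 24.7 against 8.14 to 17.6 CPM, and lower in the graft at 1 week, 6.95 to 11.7 against 32.4 to 55.4 CPM, and in the rejecting pair, 5.75 to 9.75 against 19.6 to 36.5 CPM. Each sum covers the listed genes that its matrix held, all 20 in the graft matrices and 18 in the 24-week labelled spleen. The accepted spleen matrices of 1 and 3 weeks held only 9 of the 20 genes, so their sums leave out genes that the graft sums include. Of these 9, 5 were higher and 4 lower in the 1-week graft, and 8 were higher and 1 lower in the 3-week graft. The rejecting pair held all 20 in both matrices, and 7 were higher and 2 lower in the graft, against the direction of their sum. Results at 24 weeks are given by label, apart from those of 1 and 3 weeks.

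**Figure D1:**
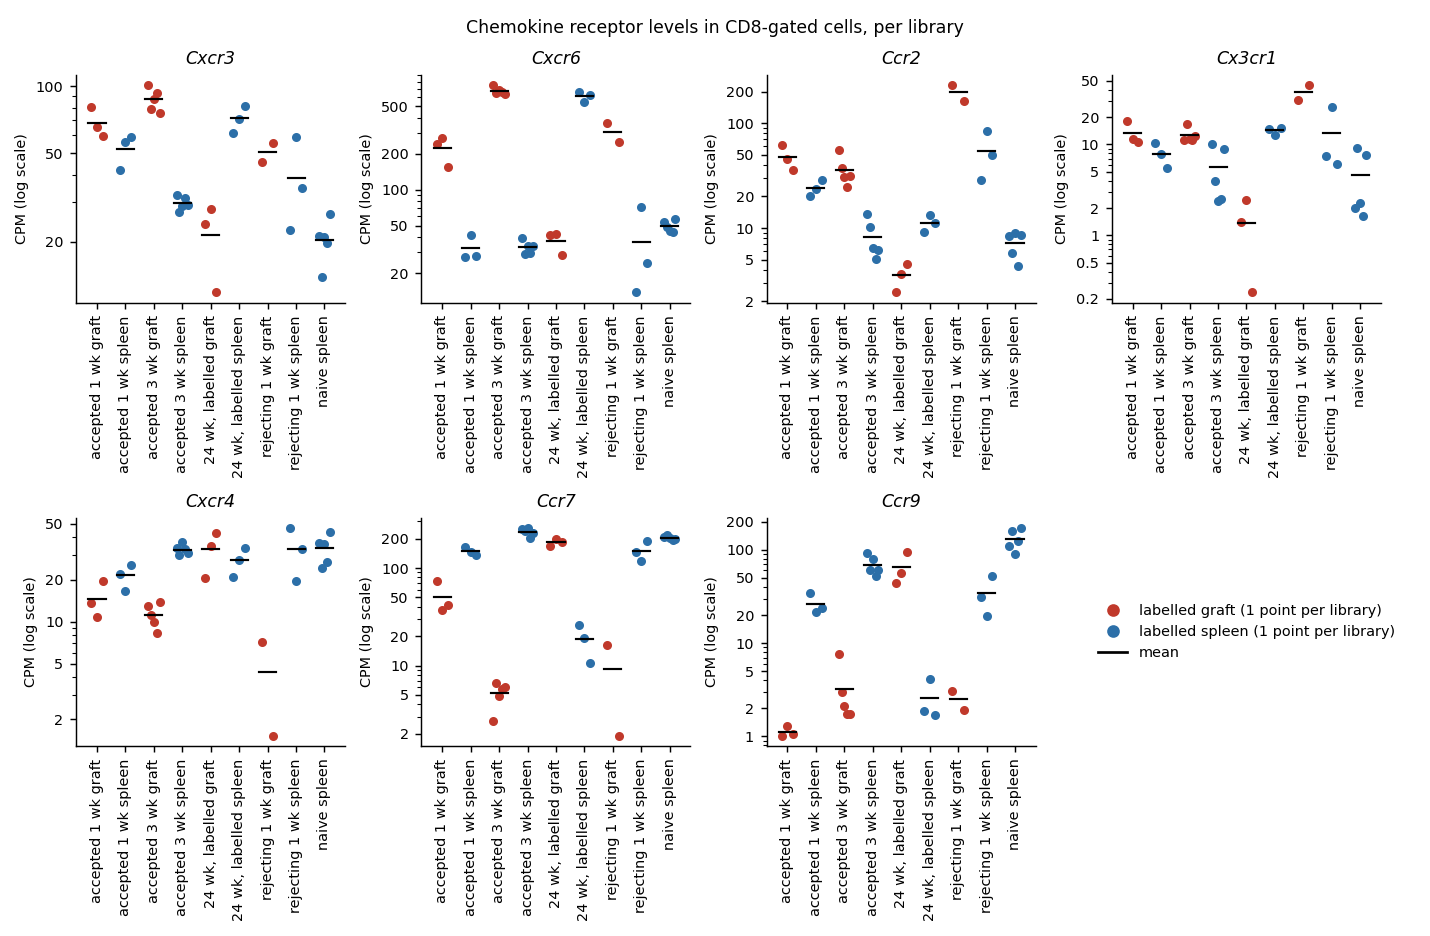
Level of each receptor in CD8-gated cells, in CPM on a log scale, by group on the horizontal axis. Each point is 1 library, red for the graft label and blue for the spleen label, and bars are means. Cxcr6 was at 627 to 751 CPM in the 3-week accepted graft and at 28.7 to 39.0 CPM in the spleens of the same time, and Ccr7 showed the reverse order.

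Cxcr6 and Ccr2 were higher in the accepted graft than in the recipient spleen at 1 and 3 weeks. Ccr7 and Ccr9 were lower at both times. Cxcr3 and Cxcr4 passed the main test, which does not pair the tissues, only at 3 weeks. With a term for the library number all 7 receptors were called at 1 week. The comparison asks how the receptors of CD8+ T cells in the accepted organ differ from those of the same recipients' spleen. A change was called at an adjusted p under 0.05 by edgeR's quasi-likelihood test over all genes tested. At 1 week 49.4% of all tested genes were called, so that 5 of the 7 receptors called is read against that background. At 3 weeks 65.4% of all genes were called, and so were all 7 receptors. Changes are log2 fold changes ± SE from plain library totals. TMM scaling moved the median of all genes by -0.11 at 1 week and -0.26 at 3 weeks on the log2 scale. It turned no receptor's direction in these 2 comparisons.

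Cxcr6 stood at 240, 272 and 155 CPM in the 3 libraries of the 1-week graft and at 27.2, 41.8 and 27.9 CPM in those of the spleen. At 3 weeks it stood at 751, 640, 676, 652 and 627 CPM in the graft against 39.0, 28.7, 34.1, 29.5 and 33.6 CPM in the spleen. Every graft library was above every spleen library at both times. The log2 fold change was 2.79 ± 0.22 at 1 week (adjusted p = 1.29e-06, edgeR) and 4.34 ± 0.09 at 3 weeks (adjusted p = 1.89e-18, edgeR). Of the groups of 1 and 3 weeks and naive spleen, Cxcr6 was highest in the 3-week graft, and the next of these, the rejecting graft, did not overlap it. The 1-week accepted graft came next and overlapped the rejecting one. Among spleens, the 5 naive libraries at 44.2 to 57.0 CPM lay above those of both accepted times.

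Ccr2, a receptor better known from monocytes, stood at 62.2, 45.8 and 35.6 CPM in the 1-week graft and 20.2, 23.4 and 28.4 CPM in the 1-week spleen. At 3 weeks the values were 55.8, 37.1, 30.9, 24.7 and 31.5 CPM in the graft and 13.6, 10.2, 6.41, 5.09 and 6.14 CPM in the spleen. The groups did not overlap at either time. Ccr2 rose by 0.98 ± 0.20 (log2, adjusted p = 0.00162, edgeR) at 1 week and by 2.06 ± 0.26 (adjusted p = 8.34e-07, edgeR) at 3 weeks. Myeloid RNA moved with it. All 7 myeloid markers at 1 week and 6 of 7 at 3 weeks were higher in the graft, where their summed level was 46.6 to 105 and 67.3 to 172 CPM, against 15.9 to 22.8 and 3.39 to 13.1 CPM in the spleen. In cells with no UMI of a CD4, regulatory T cell, B cell, myeloid or erythroid marker, the log2 fold change of Ccr2 was 1.02 at 1 week and 1.92 at 3 weeks, and both were called. In all cells of the matrices, without the gate, it was 0.35 and not called at 1 week (adjusted p = 0.0966) and 1.34 at 3 weeks.

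Cx3cr1, a receptor of terminal effector T cells and of macrophages, was lower than these. It stood at 17.96, 11.6 and 10.7 CPM in the 1-week graft and 10.5, 7.79 and 5.58 CPM in the spleen, without overlap. The 3-week graft had 11.3, 17.0, 11.3, 11.2 and 12.4 CPM, and the spleen 10.2, 3.99, 2.40, 2.54 and 8.98 CPM. All graft libraries were again above all spleen libraries. Cx3cr1 rose by 1.13 ± 0.27 (log2, adjusted p = 0.00109, edgeR) at 3 weeks. At 1 week the log2 fold change was 0.76 ± 0.26 (adjusted p = 0.0287, edgeR). This call was lost under TMM scaling (adjusted p = 0.0569), in the cells free of other markers (0.0596) and in a fit over all 9 matrices (0.0638). It was also lost without graft library 1 (0.119), spleen library 2 (0.0659) or spleen library 3 (0.116). The log2 fold change was larger in all cells of the matrices (1.49) and in cells with no UMI of a division gene (1.52). The rise in myeloid markers applies here too, and its part in the result was not tested beyond these cells, in which the 3-week value was 0.91 and called.

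Cxcr3 stood at 80.3, 65.7 and 59.4 CPM in the 1-week graft and at 42.1, 55.9 and 59.2 CPM in the spleen, so that the lowest graft and the highest spleen library nearly met. At 3 weeks the graft had 101, 78.6, 87.4, 93.3 and 75.7 CPM and the spleen 32.2, 27.2, 28.8, 31.5 and 29.3 CPM, far apart. Cxcr3 rose by 1.55 ± 0.10 (log2, adjusted p = 3.93e-11, edgeR) at 3 weeks. The 1-week value of 0.38 ± 0.15 missed the threshold (adjusted p = 0.0503, edgeR). It was called with a term for the library number (log2 fold change 0.38, adjusted p = 0.0163), and in cells with no UMI of a division gene it was 0.79 (adjusted p = 0.00041). It was also called without the low-count filter (adjusted p = 0.0310), without graft library 3 (0.48, adjusted p = 0.0165) and without spleen library 3 (0.48, adjusted p = 0.0267). It was lower and not called under TMM scaling (0.27, adjusted p = 0.111), by DESeq2 (0.29, adjusted p = 0.130), in the cells free of other markers (0.29, adjusted p = 0.133) and in all cells of the matrices (0.22, adjusted p = 0.187).

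Ccr7 was lower in the graft. It stood at 72.8, 37.1 and 41.9 CPM in the 1-week graft and at 165, 146 and 135 CPM in the spleen. In the 3-week graft it had 2.73, 6.66, 4.84, 5.69 and 5.98 CPM, against 249, 238, 256, 201 and 231 CPM in the spleen. The groups were apart at both times, and in the 3-week graft no library reached 7 CPM. Ccr7 fell by 1.56 ± 0.21 on the log2 scale at 1 week (adjusted p = 8.04e-05, edgeR) and by 5.51 ± 0.13 at 3 weeks (adjusted p = 1.23e-17, edgeR). B cells, which also carry Ccr7, left RNA in the spleen libraries, with a summed marker level of 395 to 839 CPM at 1 week and 103 to 286 CPM at 3 weeks against 8.86 to 26.4 CPM in the grafts. In cells with no B cell or other marker UMI the log2 fold change of Ccr7 was -1.64 at 1 week and -5.66 at 3 weeks, both called.

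Ccr9, the gut and thymus receptor, stood at 1.02, 1.30 and 1.05 CPM in the 1-week graft and at 34.2, 21.6 and 23.5 CPM in the spleen. The 3-week graft had 7.56, 2.96, 2.14, 1.73 and 1.75 CPM, and the spleen 93.0, 60.2, 80.5, 51.9 and 60.5 CPM. The groups were apart at both times. Ccr9 fell by 4.55 ± 0.24 on the log2 scale at 1 week (adjusted p = 5.31e-08, edgeR) and by 4.41 ± 0.27 at 3 weeks (adjusted p = 1.97e-11, edgeR). Without the highest 3-week graft library, library 1, the 3-week value was -5.03. It was highest in naive spleen, at 90.05 to 170 CPM.

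Cxcr4 changed less. It stood at 13.7, 10.8 and 19.4 CPM in the 1-week graft and 22.1, 16.7 and 25.4 CPM in the spleen, and these overlapped. At 3 weeks it stood at 13.0, 11.1, 9.95, 8.23 and 13.8 CPM in the graft and 33.6, 29.7, 36.9, 33.1 and 30.7 CPM in the spleen, without overlap. Cxcr4 fell by 1.54 ± 0.13 on the log2 scale at 3 weeks (adjusted p = 4.60e-09, edgeR). The 1-week value was -0.55 ± 0.22 (adjusted p = 0.0535, edgeR). It was called with a term for the library number (log2 fold change -0.55, adjusted p = 0.00218), under TMM scaling (-0.66, adjusted p = 0.0260) and by DESeq2 (-0.64, adjusted p = 0.0172), and also without the low-count filter and in cells with no UMI of a division gene (-0.70). It was not called in the cells free of other markers (-0.47, adjusted p = 0.121) or in all cells (-0.40, adjusted p = 0.141). Leaving out 1 library moved it between -0.83 and -0.37, and it was called without graft library 3 or spleen library 2.

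**Figure D2:**
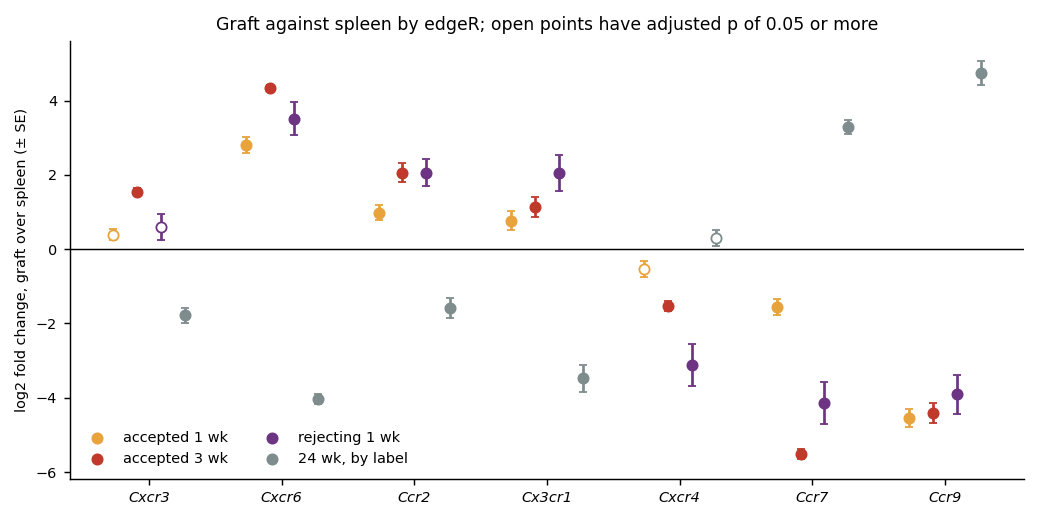
Log2 fold change of graft over spleen for each receptor on the vertical axis, with SE bars, in the accepted pairs of 1 and 3 weeks, the rejecting pair of 1 week and the 24-week pair by its labels. Filled points had an adjusted p under 0.05 by edgeR and open points did not. Cxcr6 was at 2.79, 4.34 and 3.51 in the first 3 pairs and at -4.03 in the 24-week pair.

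The share of cells with a receptor UMI was compared after every cell was thinned to 1000 UMIs, since the median depth of gated cells ran from 1902.5 UMIs in the rejecting spleen to 5065.5 in the 24-week labelled graft. Of the 7 receptors, 6 had shares that did not overlap between the libraries of accepted graft and spleen at 1 week, against 46.0% of all genes tested, and 6 at 3 weeks, against 34.9%. Cx3cr1 overlapped at both times. At 1 week the receptor that overlapped depended on the setting. None did with another random seed, Cxcr4 did at 500 UMIs, and Cxcr3 and Cxcr4 did without thinning. With the gate applied after thinning, Cxcr4 and Cx3cr1 overlapped. Cxcr6 was found in 19.5% ± 4.23 (SD, n = 3) of graft cells and 3.29% ± 0.94 of spleen cells at 1 week. At 3 weeks it was found in 45.8% ± 2.86 (n = 5) of graft cells and 2.86% ± 0.95 of spleen cells, or in 70.1% and 11.2% without thinning.

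Ccr7 was found in 3.88% ± 1.01 (SD, n = 3) of graft and 14.0% ± 0.66 of spleen cells at 1 week, and in 0.442% ± 0.125 (n = 5) of graft and 19.96% ± 2.85 of spleen cells at 3 weeks. Unthinned, the 3-week shares were 0.988% and 57.9%. Cxcr3 was found in 6.93% ± 1.11 and 4.29% ± 0.47 at 1 week and in 8.45% ± 0.77 and 2.90% ± 0.53 at 3 weeks. For Ccr2 the 3-week shares were 3.07% ± 1.00 and 0.642% ± 0.392, and for Cxcr4 they were 1.15% ± 0.27 and 3.42% ± 0.55. Each difference without overlap had the smallest p that the exact two-sided permutation test over libraries allows, 0.1 for 3 against 3 and 0.00794 for 5 against 5. The 1-week comparison could therefore not reach 0.05.

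Ccr9 was found in 0.114% ± 0.004 (SD, n = 3) of graft cells at 1 week and 0.256% ± 0.186 (n = 5) at 3 weeks, against 2.80% ± 0.50 and 6.84% ± 1.74 of spleen cells. Cells gated as B cells in naive spleen, with a median of 2735 UMIs, had a Ccr9 UMI in 0.260% (69 of 26523), so the mean graft shares were at or below this background and are not read as expression. Naive spleen was the group highest in Ccr9, and stray Ccr9 RNA in the graft libraries themselves was not measured. The naive spleen B cells had a Cxcr3 UMI in 0.0679% and a Cxcr6 UMI in 0.0452%, below every T cell group of either tissue. Cells gated as macrophages in the rejecting kidney, with a median of 3181 UMIs, had a Ccr2 UMI in 44.4% and a Cx3cr1 UMI in 17.6%. They had a Cxcr4 UMI in 2.37% and no Ccr7 UMI in 845 cells, which allows a share of up to 0.355%. B cells, which carry Ccr7 and Cxcr4 themselves, had a Ccr7 UMI in 10.1% and a Cxcr4 UMI in 6.41% in naive spleen. The Cxcr4 shares of accepted graft and spleen were below that of these B cells. The part of other cells' RNA was not tested beyond the cells free of other markers. In these the log2 fold change of Cxcr4 was -0.47 at 1 week, not called, and -1.51 at 3 weeks (adjusted p = 1.87e-08, edgeR).

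**Figure D3:**
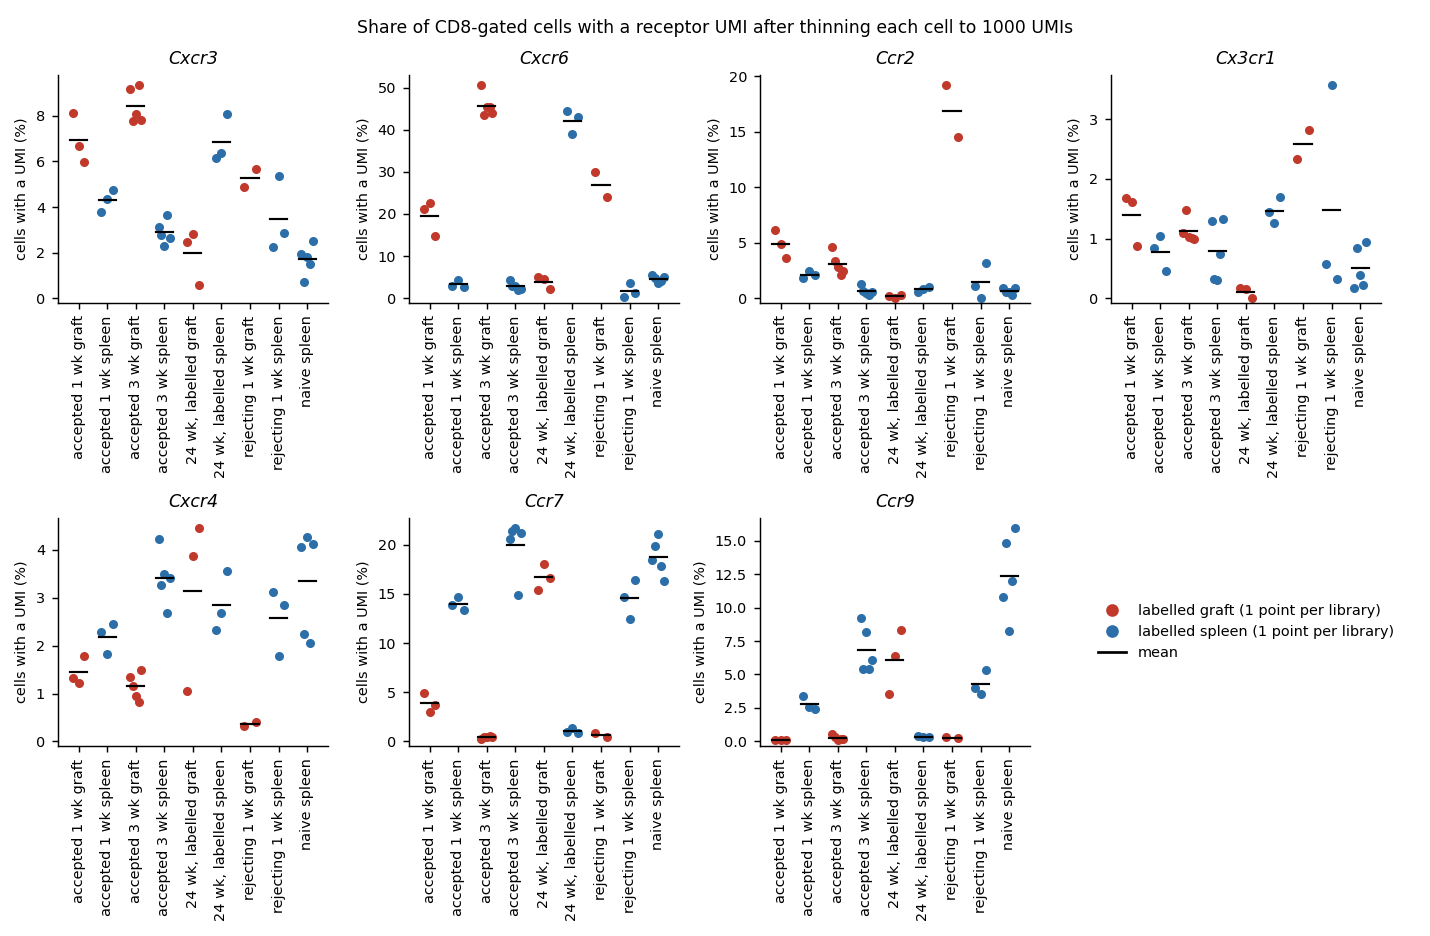
Share of CD8-gated cells with a UMI of each receptor, in percent, after each cell was thinned to 1000 UMIs. Points are libraries, red for the graft label and blue for the spleen label, and bars are means. At 3 weeks the graft libraries had Cxcr6 in 43.5% to 50.6% of cells and Ccr7 in 0.238% to 0.580%.

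Few cells had UMIs of more than 1 of the 7 receptors. After thinning, 52.4% of the cells of the median 3-week graft library had a UMI of any of them, against 33.3% in the 3-week spleen, 35.5% in the 1-week graft and 26.2% in the 1-week spleen. Over all cells of a group, 2 or more of the receptors were found in 6.78%, 3.85%, 4.05% and 2.81% of these. The rejecting graft had the most at 9.31%. Naive spleen had any receptor in 35.7% and 2 or more in 5.29%.

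Between 1 and 3 weeks in the accepted graft, Cxcr6 rose and Ccr7 fell further. Here 74.8% of all genes were called, and 4 of the 7 receptors were. Cxcr6 rose by 1.59 ± 0.14 (log2, adjusted p = 1.42e-07, edgeR) and Ccr7 fell by 3.29 ± 0.23 (adjusted p = 1.14e-08, edgeR). Ccr9 rose by 1.53 ± 0.46 (adjusted p = 0.00761), and by 0.93 without 3-week library 1, within levels whose mean shares of cells were not above background. Cxcr3 was 0.35 ± 0.11 higher (adjusted p = 0.0108, edgeR), but -0.030 and uncalled under TMM scaling, which moved the median of all genes by -0.39, and uncalled at 0.26 without 1-week library 3 (adjusted p = 0.0591). Its call was also lost in cells with no UMI of a division gene (0.20, adjusted p = 0.164). Ccr2, Cxcr4 and Cx3cr1 did not pass the test, at -0.40, -0.40 and -0.07. Under TMM scaling they were called lower, at -0.78, -0.79 and -0.45. Leaving out 1 library moved Ccr2 between -0.61 and -0.17, called without 1-week library 3 or 3-week library 1, and Cxcr4 between -0.57 and -0.12, called without 1-week library 2 or 3-week library 1 or 5. Without the low-count filter both were called, as was Cxcr4 in all cells (-0.55) and Ccr2 in cells with no UMI of a division gene (-0.53).

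The difference between graft and spleen itself was larger at 3 weeks than at 1 week for several receptors, by a test of the interaction in a fit that uses the same 4 groups as above. This test called 33.7% of all genes. Of the 7 receptors, 5 were called. The graft to spleen difference of Cxcr6 grew by 1.54 ± 0.22 (log2, adjusted p = 1.63e-05, edgeR) and that of Cxcr3 by 1.17 ± 0.18 (adjusted p = 2.66e-05). It moved by -3.95 ± 0.26 for Ccr7 (adjusted p = 2.22e-10) and by -0.998 ± 0.252 for Cxcr4 (adjusted p = 0.00395). Ccr2 at 1.09 ± 0.37 (adjusted p = 0.0280) was not called under TMM scaling (0.91, adjusted p = 0.0673), by DESeq2, in cells free of other markers or in cells without genes of division. Ccr9 at 0.14 ± 0.48 and Cx3cr1 at 0.37 ± 0.42 did not pass. Spleen means also moved for Ccr2, Cxcr4, Cxcr3 and Ccr7, though hardly for Cxcr6. Ccr2 had means at 1 and 3 weeks of 47.9 and 35.98 CPM in graft and 24.01 and 8.27 CPM in spleen. Its difference thus grew while its graft mean was lower. Those of Cxcr4 were 14.6 and 11.2 against 21.4 and 32.8 CPM, and those of Cxcr3 68.5 and 87.2 against 52.4 and 29.8 CPM. Cxcr6 had 222 and 669 against 32.3 and 32.96 CPM, and Ccr7 50.6 and 5.18 against 149 and 235 CPM.

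In the rejecting recipients at 1 week, Cxcr6, Ccr2 and Cx3cr1 were higher in the graft than in the spleen and Cxcr4, Ccr7 and Ccr9 were lower. The test called 17.2% of all genes, and 6 of the 7 receptors, from 2 graft and 3 spleen libraries, of which spleen library 2 held 56 cells. Cxcr6 stood at 360 and 250 CPM in the graft and 13.8, 71.8 and 24.2 CPM in the spleen, and rose by 3.51 ± 0.44 (log2, adjusted p = 7.95e-05, edgeR). Ccr2 stood at 231 and 161 CPM against 29.0, 84.8 and 49.9 CPM and rose by 2.06 ± 0.36 (adjusted p = 0.00124, edgeR). The groups did not overlap for either gene. In cells with no UMI of a division gene the changes were larger, 4.87 for Cxcr6 and 3.30 for Ccr2. Both rejecting graft libraries were above every other library of the 9 matrices for Ccr2.

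Cx3cr1 stood at 30.8 and 45.2 CPM in the rejecting graft and at 7.55, 26.1 and 6.05 CPM in the spleen, and was called at 2.04 ± 0.49 (log2, adjusted p = 0.0100, edgeR). The call was lost by DESeq2 (1.72, adjusted p = 0.101) and without spleen library 1 (1.80, adjusted p = 0.133) or 3 (1.70, adjusted p = 0.106). Of the 7 myeloid markers 6 were higher in this graft, with a sum of 143 to 176 CPM against 7.55 to 97.9 CPM in the spleen, and all 4 B cell markers were lower, at 3.45 to 8.72 against 65.2 to 272 CPM. In cells with no UMI of these or the other markers Cx3cr1 was at 1.81 (adjusted p = 0.0466), Ccr2 at 2.12 and Ccr7 at -3.91, all called. Ccr7 stood at 16.4 and 1.92 CPM in the graft and 147, 117 and 188 CPM in the spleen, and fell by 4.15 ± 0.56 (adjusted p = 0.000157, edgeR). The change was -6.26 without graft library 2 and -3.24 without library 3. The 2 graft libraries differed widely in it. They also differed in how many cells held a UMI of a division gene, 28.4% in the first, numbered 2, and 75.9% in the second, numbered 3.

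Ccr9 stood at 3.08 and 1.92 CPM in the rejecting graft and at 31.5, 19.6 and 52.9 CPM in the spleen, and fell by 3.90 ± 0.53 (log2, adjusted p = 0.000157, edgeR). Cxcr4 stood at 7.18 and 1.53 CPM in the graft and at 46.6, 19.6 and 33.3 CPM in the spleen, and fell by 3.12 ± 0.57 (adjusted p = 0.00165, edgeR). The change of Cxcr4 was -4.49 without graft library 2 and -2.35 without library 3. Cxcr3 overlapped, with 45.7 and 55.2 CPM against 22.7, 58.7 and 34.8 CPM, and its 0.60 ± 0.36 did not pass (adjusted p = 0.290, edgeR). It lay between 0.26 and 0.83, uncalled, when 1 library was left out, and was called in cells with no UMI of a division gene (1.08, adjusted p = 0.0381). In shares of thinned cells 5 of the 7 receptors did not overlap between the tissues, against 40.3% of all genes, and the smallest p of 2 against 3 libraries is 0.2. Cxcr6 was found in 27.0% ± 4.09 (SD, n = 2) of graft cells and 1.71% ± 1.69 (n = 3) of spleen cells, and Ccr2 in 16.9% ± 3.28 and 1.43% ± 1.60.

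Set against the accepted graft of 1 week, the rejecting graft had more Ccr2 and Cx3cr1 and less Ccr7 and Cxcr4. Recipient and donor strain are exchanged between these groups, so strain and rejection cannot be told apart. The test called 58.1% of all genes and 4 of the 7 receptors. Ccr2 was 2.04 ± 0.26 higher (log2, adjusted p = 0.000240, edgeR), at 161 and 231 CPM against 35.6 to 62.2 CPM. Cx3cr1 was 1.52 ± 0.28 higher (adjusted p = 0.00182), at 30.8 and 45.2 CPM against 10.7 to 17.96 CPM. Neither pair of groups overlapped. The summed myeloid markers were 143 to 176 CPM in the rejecting graft and 46.6 to 105 CPM in the accepted one, with 6 of 7 higher in the former, while Itgam was at 0 in it. In cells with no UMI of these or the other markers Ccr2 was 2.22 and Cx3cr1 1.18 higher, and both were called.

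Ccr7 was lower in the rejecting graft by 2.57 ± 0.63 (log2, adjusted p = 0.00758, edgeR), and by 4.71 without rejecting library 2 and 1.62 without library 3. Cxcr4 was lower by 1.86 ± 0.53 (adjusted p = 0.0154), with -3.26 without rejecting library 2 and an uncalled -1.04 without library 3 (adjusted p = 0.0699). A single library in the rejecting group was then assumed to vary like the accepted ones. TMM scaling moved the median of all genes by -0.67 and all 7 receptors downward with it. Ccr2 was then 1.38 and Cx3cr1 0.86 higher, and Cxcr4 was at -2.53 and Ccr7 at -3.23, all still called. Cxcr6 went from 0.45 ± 0.26 (adjusted p = 0.168, edgeR) to -0.22 under TMM. It was called higher in cells with no UMI of a division gene (0.51, adjusted p = 0.0350), in a fit over all 9 matrices (0.45, adjusted p = 0.0379) and without rejecting library 3 (0.70, adjusted p = 0.0223). Cxcr3 went from -0.43 ± 0.20 (adjusted p = 0.0872) to -1.10 under TMM (adjusted p = 0.00152), and was called lower in cells with no UMI of a division gene (-0.59, adjusted p = 0.0393). Ccr9 at 1.11 ± 0.48 did not pass (adjusted p = 0.0751), but was called in all cells of the matrices (1.61, adjusted p = 0.0122).

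The graft to spleen differences of rejecting and accepted recipients were tested against each other, and this called 0.546% of all genes, 65 of 11915 by edgeR, with 1504 genes at an unadjusted p under 0.05. Of the 7 receptors 0 were called by edgeR, 4 had an unadjusted p under 0.05, and 2 were called by DESeq2. Ccr7 and Cxcr4 were nearest, each at -2.66 ± 0.60 (log2, adjusted p = 0.0569, edgeR). DESeq2 gave -2.63 for Ccr7 (adjusted p = 0.0135) and -2.72 for Cxcr4 (adjusted p = 0.00461). Both were also called without the low-count filter and in all cells of the matrices. The gate kept 100% of the cells of the rejecting spleen but 44.2% of those of the accepted 1-week spleen. The fit in all cells thus compares unlike sets of cells. Ccr2 was at 1.13 ± 0.42 (adjusted p = 0.268), and was called at 1.90 in cells with no UMI of a division gene (adjusted p = 0.00886) and at 1.79 in all cells (adjusted p = 0.0315). Cx3cr1 was at 1.34 ± 0.59 (adjusted p = 0.361).

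The spleen of accepted recipients also differed from naive spleen, more at 1 week than at 3 weeks by the share of all genes called, 57.6% and 12.3%. Of the 7 receptors 6 were called at 1 week and 4 at 3 weeks. The 5 naive libraries had Ccr9 at 110, 158, 90.05, 126 and 170 CPM, above all libraries of the 1-week spleen, and overlapping the 3-week spleen in its highest library only. Ccr9 fell by 2.30 ± 0.19 (log2, adjusted p = 2.02e-08, edgeR) at 1 week and by 0.89 ± 0.14 (adjusted p = 8.46e-05) at 3 weeks. Cxcr3, at 21.2, 13.8, 21.01, 19.6 and 26.5 CPM in naive spleen, rose by 1.36 ± 0.14 (adjusted p = 3.51e-07) and 0.54 ± 0.13 (adjusted p = 0.00610), and every recipient library was above every naive one. The 3-week call of Cxcr3 was lost when all 9 matrices were fitted together (adjusted p = 0.0582, edgeR).

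Ccr2 had 8.40, 5.76, 9.005, 4.34 and 8.56 CPM in naive spleen, below all 3 spleens of 1 week, and rose by 1.75 ± 0.19 (log2, adjusted p = 3.97e-07, edgeR) there. At 3 weeks Ccr2 overlapped with naive spleen and was at 0.26 ± 0.25 (adjusted p = 0.537). It was -0.0050 without spleen library 1, and in all cells of the matrices it was called at 0.85 (adjusted p = 0.000556). Cxcr6 fell at both times, by 0.64 ± 0.13 (adjusted p = 0.000451) and 0.58 ± 0.10 (adjusted p = 0.000304), though not when all cells of the matrices were used without the gate, at -0.13 and -0.095. The gate kept 44.2% and 46.8% of the cells of the recipient spleens but 96.1% of those of naive spleen. Values in all cells thus compare unlike sets of cells here. Ccr7 was 0.45 ± 0.08 lower at 1 week (adjusted p = 7.64e-05) and 0.21 ± 0.07 higher at 3 weeks (adjusted p = 0.0374). The latter call was lost in 8 of the 10 fits that left out 1 library. Cxcr4 fell by 0.62 ± 0.17 at 1 week (adjusted p = 0.00440), was at -0.024 at 3 weeks, and Cx3cr1 did not pass at either time. At 1 week Cx3cr1 was at 0.85 ± 0.41 (adjusted p = 0.0810), between 0.59 and 1.26 when 1 library was left out. It was called without spleen library 3, naive library 2 or naive library 5, under TMM scaling (1.02, adjusted p = 0.0441) and without the low-count filter (adjusted p = 0.00553), and in all cells it was 0.021. Both comparisons use the same naive libraries. Each of the 4 B cell markers was higher in the recipient spleens than in naive spleen, where their sum was 27.9 to 55.6 CPM. Of the 7 myeloid markers 6 were higher at each time, with sums of 15.9 to 22.8 CPM at 1 week and 3.39 to 13.1 CPM at 3 weeks against 2.30 to 10.2 CPM in naive spleen. In cells with no UMI of these or the other markers the 1-week change of Ccr2 was 1.59 and called.

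By the labels of 24 weeks, 6 of the 7 receptors were called, against 53.8% of all genes, in directions opposite to those of 1 and 3 weeks. Cxcr6 stood at 41.9, 42.4 and 28.2 CPM in the labelled graft and at 653, 545 and 614 CPM in the labelled spleen, with a log2 fold change of -4.03 ± 0.14 (adjusted p = 3.18e-13, edgeR). Ccr7 stood at 170, 198 and 184 CPM against 25.8, 19.3 and 10.7 CPM, at 3.29 ± 0.18 (adjusted p = 1.16e-10). Ccr9 stood at 44.3, 56.8 and 94.3 CPM against 1.85, 4.10 and 1.71 CPM, at 4.75 ± 0.32 (adjusted p = 1.77e-09). The libraries of the labels did not overlap for these genes.

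Cxcr3 was at 24.1, 28.1 and 11.8 CPM in the 24-week labelled graft and 61.6, 71.2 and 81.7 CPM in the labelled spleen, a log2 fold change of -1.78 ± 0.20 (adjusted p = 1.00e-06, edgeR). Ccr2 was at 2.44, 3.66 and 4.50 CPM against 9.07, 13.2 and 11.2 CPM, at -1.58 ± 0.27, and at 0.26 when all cells of the matrices were used without the gate. Cx3cr1 was at 1.40, 2.44 and 0.237 CPM against 14.8, 12.6 and 15.4 CPM, at -3.47 ± 0.37, with -4.28 and -2.86 without labelled graft library 2 or 3. In thinned cells the mean labelled graft shares were 0.158% for Ccr2 and 0.109% for Cx3cr1. Cells gated as B cells in naive spleen had 0.260% and 0.109%, so these graft shares were not above that background. Cxcr4 overlapped, with 20.6, 34.8 and 43.4 CPM against 21.02, 27.5 and 33.9 CPM, and its 0.30 ± 0.21 did not pass (adjusted p = 0.245). It was called under TMM scaling (0.55, adjusted p = 0.0386) and without labelled graft library 1 (0.53, adjusted p = 0.0249), and without labelled graft library 3 it was 0.035. In thinned shares 6 receptors were apart, against 45.4% of all genes, with Cxcr6 in 3.88% ± 1.57 (SD, n = 3) of labelled graft and 42.2% ± 2.81 of labelled spleen cells. The interaction of the 24-week labels with the 3-week pair called 70.1% of all genes and all 7 receptors, from -8.36 ± 0.17 for Cxcr6 to 9.17 ± 0.51 for Ccr9. Summed B cell markers were 78.4 to 209 CPM in the labelled graft and 13.9 to 42.8 CPM in the labelled spleen. Of the 7 myeloid markers 6 were lower in the labelled graft, with sums of 1.90 to 6.11 against 16.3 to 48.3 CPM, and in cells with no UMI of such markers Ccr2 was at -1.78 and Cx3cr1 at -3.41, both called.

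Of 16 other chemokine and atypical receptors, 4 passed the filter on low counts at 1 week and 3 at 3 weeks in the accepted pairs. All of these were called, 2 in each direction at 1 week, against 49.4% of all genes, and 2 higher and 1 lower at 3 weeks, against 65.4%. Ccrl2, which binds chemerin, rose by 2.11 ± 0.31 at 1 week (log2, adjusted p = 0.000178, edgeR). Cxcr5 and Ccr6, both known from B cells, fell at 1 week by 3.32 ± 0.29 and 3.28 ± 0.37, from 13.7 and 7.17 CPM in spleens that held the B cell RNA given above.

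Genes of entry into and exit from lymphoid tissue went both ways between spleen and graft. Of 14 listed, 13 were tested in the accepted pairs, and 5 rose and 7 fell at 1 week, as at 3 weeks, where 49.4% and 65.4% of all genes were called. The median log2 fold change of the list was -0.53 and -0.94, against 0.08 and 0.28 over all genes. Those that fell include S1pr1, the receptor that guides T cells out of lymph nodes, at -1.92 ± 0.12 and -5.04 ± 0.11. Klf2, a transcription factor known to act on S1pr1, was at -2.47 ± 0.13 and -3.27 ± 0.11. Itga1, an integrin chain of tissue-resident T cells, rose by 2.96 ± 0.27 and 7.04 ± 0.11, and Itgae, the CD103 chain, by 1.43 ± 0.25 and 2.99 ± 0.09. Itgb7, the chain that pairs with Itgae, fell by 0.88 ± 0.10 and 2.08 ± 0.08, and Cd69, a further marker of resident or recently activated T cells, was at -0.97 ± 0.16, called, and -0.28 ± 0.12, not called (adjusted p = 0.0540). In the rejecting pair, where 17.2% of all genes were called, 2 of 13 rose and 6 fell, with S1pr1 at -5.13 ± 0.35.

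Of 14 listed genes of receptor signaling and desensitization, 13 were tested. With plain library totals 7 rose at 1 week and 2 fell, against 49.4% of all genes called, and at 3 weeks 8 rose and 3 fell, against 65.4%, with list medians of 0.31 and 0.33 against 0.08 and 0.28 over all genes. The regulators of G protein signaling, which shorten the signal of such receptors, had the largest values of the list. Rgs1 rose by 2.73 ± 0.12 (log2, adjusted p = 1.71e-08, edgeR) at 1 week and 4.21 ± 0.09 (adjusted p = 4.79e-18) at 3 weeks. Rgs16 was at 6.20 ± 0.20 and 5.40 ± 0.18 and Rgs2 at 2.90 ± 0.14 and 3.37 ± 0.10. The arrestins, which uncouple such receptors, went both ways. Arrb1 was at -1.70 ± 0.30 and -0.72 ± 0.15, with means of 1.85 and 7.86 CPM in the graft. Arrb2 was at 0.41 ± 0.10 and 0.56 ± 0.07, both called, with means of 57.8 and 100 CPM in the graft.

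Within the 1-week accepted graft, cells with a Cxcr6 UMI differed from the other gated cells. Co-detection was counted in thinned cells as the number with both UMIs over the number expected from the 2 shares within each library, and it is a description, since cells of 1 library are not replicates. Tcf7, a transcription factor of naive and memory T cells, was found with Cxcr6 at a ratio of 0.31 in the median library (0.12 to 0.44) and Ccr7 at 0.37 (0.25 to 0.38). Gzmb, the cytotoxic protease granzyme B, was at 1.26 (1.13 to 1.37), Itgae at 1.36 (1.33 to 1.38) and Ccr2 at 1.24 (1.10 to 1.41). Over all 3 libraries Gzmb was found in 39.9% of the 2540 cells with a Cxcr6 UMI and in 30.2% of the rest. Mki67, a gene of dividing cells, was at 0.80 (0.75 to 0.91).

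At 3 weeks the ratio cannot exceed 1 over the larger Cxcr6 share, so its values are not compared with those of 1 week. Tcf7 was at 0.82 (0.46 to 1.12) with Cxcr6. Gzmb was at 1.00 (0.97 to 1.04), Itgae at 1.02 (0.99 to 1.07) and Ccr2 at 0.91 (0.77 to 1.18). Ccr7 was at 0.67 (0.58 to 1.04), from 97 cells in all. In the rejecting graft Tcf7 was at 0.18 and 0.30 with Cxcr6, Gzmb at 0.92 and 1.01, and Ccr2 at 1.11 and 1.28.

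**Figure D4:**
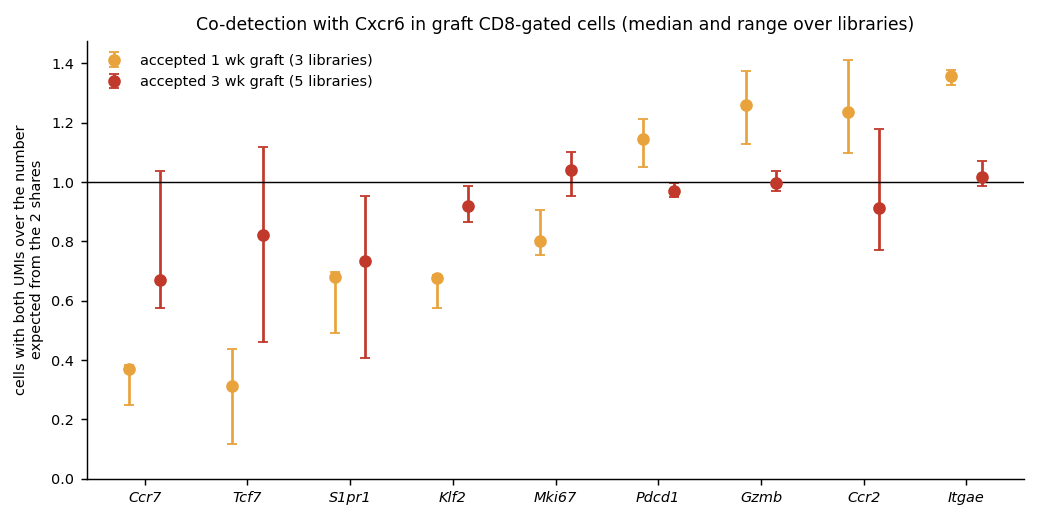
Cells with UMIs of both Cxcr6 and each named gene, over the number expected from the 2 shares, in the accepted graft at 1 week (3 libraries) and 3 weeks (5 libraries). Points are the median library and bars the range. A ratio of 1 means no association, the ratio is bounded by 1 over the Cxcr6 share and is not compared between the times, and at 1 week Tcf7 was at 0.31 and Itgae at 1.36.

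In the 1-week graft, Ccr7 was found with Tcf7 at a ratio of 2.79 (2.22 to 3.01), with S1pr1 at 2.01 (1.88 to 2.05) and with Gzmb at 0.43 (0.28 to 0.50). Ccr2 was found with Gzmb at 1.40 (1.31 to 1.41) and with S1pr1 at 1.35 (1.12 to 1.93). Cx3cr1 was found with Klf2 at 1.68 (1.48 to 2.13) at 1 week, and with Gzmb at 0.45 (0.21 to 0.63) and Itgae at 0.57 (0.39 to 0.79) at 3 weeks. The last 2 rest on 241 cells with a Cx3cr1 UMI, and macrophage RNA carries this gene as given above.

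The ligands were read in CD45+ cells of the rejecting kidney and of naive spleen. These differ in tissue, recipient strain and cell makeup as well as in rejection, which cannot be told apart. The rejecting kidney had 845 cells in the macrophage gate and 22 in the B cell gate, against 150 and 26604 in naive spleen. Cxcl9, a ligand of Cxcr3, was at 2082 and 2928 CPM in the 2 rejecting kidney libraries and at 1.34 to 6.31 CPM in the 5 naive spleens. Cxcl10, another of its ligands, was at 206 and 505 CPM against 1.33 to 2.78 CPM. Cxcl16, the ligand of Cxcr6, was at 443 and 431 CPM against 1.43 to 2.67 CPM, and Ccl2, a ligand of Ccr2, at 18.2 and 48.9 CPM against at most 0.826 CPM. The libraries of these 4 ligands were far apart. Ccl25, the ligand of Ccr9, was at 16.4 and 19.4 CPM against 17.1 to 19.1 CPM and overlapped. Of the ligands made mainly by stromal cells, which this sort leaves out, Cxcl12 had 2 UMIs and Cx3cl1 had 4 in 1 kidney library, and both had 0 in the other. For accepted grafts the ligands were read in CD8-gated cells only. Of 13 listed, 4 were tested at each time, and 3 were higher in graft than spleen, against 49.4% and 65.4% of all genes called. Cxcl9 was at 6.72 and 9.20, Cxcl10 at 3.56 and 2.56 and Cxcl16 at 7.99 and 4.35 (log2, 1 and 3 weeks), with graft means of at most 16.5 CPM. Spleen means were 0.0742 and 0 CPM for Cxcl9, 1.40 and 1.19 CPM for Cxcl10 and 0 and 0.153 CPM for Cxcl16. Genes this low in spleen pass the low-count filter mainly through the graft, which fixes the direction of a call. These calls are thus not read against the share of all genes, nor are the sizes of the changes read. Ccl25 was not called.

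The neighbors of the receptors did not move as one. Cxcr6 lies within Fyco1, a gene on the opposite strand that was at -0.46 (log2, adjusted p = 0.0377, edgeR) at 1 week and 1.63 (adjusted p = 5.54e-12) at 3 weeks in graft against spleen. Its mean was 17.8 and 107 CPM in the graft, below that of Cxcr6 in each. Ccr9 overlaps Lztfl1 on the opposite strand, at -1.14 and -0.46, and Cx3cr1 overlaps Csrnp1 on its own strand, at 1.60 and 0.99. How reads in such overlaps were assigned is not given in the sources used here, so these values may share reads with the receptors.

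Across the 32 libraries, the gene whose log2(CPM + 1) was most like that of each receptor, out of 5299 genes above a floor of 20 CPM on average, was S100a6 for Cxcr3 (Pearson r = 0.949), Aplp2 for Cxcr6 (0.973), Lpgat1 for Ccr2 (0.912), Zeb2 for Cx3cr1 (0.868), Tcp11l2 for Cxcr4 (0.867), S1pr1 for Ccr7 (0.975) and Arl4c for Ccr9 (0.970). The next 2 were S100a4 and Prr13 for Cxcr3, Hspa1a and Sema6d for Cxcr6, Top2a and Cops2 for Ccr2, Ptpn11 and Cd44 for Cx3cr1, Tsc22d3 and Gas5 for Cxcr4, Dapl1 and Tcf7 for Ccr7 and Dph5 and Pdk1 for Ccr9. These are descriptions over libraries that share tissue, time and depth.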

How the data were processed

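Per the submitters' processing notes, reads were mapped with Cell Ranger to mm10. The versions are not given in the sources used here. The authors filtered cells by UMIs, mitochondrial content and number of genes, named CD8+ T cells in Seurat and deposited raw UMI counts. Each matrix holds several libraries, told apart by barcode tags, which were taken as replicates, and p-values measure the spread between tags. The 7 genes, the lists, the tests and the alternatives were chosen with earlier results of these data known. The genes named are the 7 receptors, the lists named in the report, the annotated neighbors and the 3 genes most like each receptor.

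UMIs of CD8-gated cells were summed per library, with 153266 to 22782080 UMIs each, and tested in edgeR 4.0.16 (R 4.3.3) with filterByExpr, plain library totals, a quasi-likelihood test and Benjamini-Hochberg adjustment over all genes tested (threshold 0.05). DESeq2 1.42.0, TMM factors, no filter, other gates, a term for the library number and leaving out each library were alternatives. The script was tested on simulated data. Shares used cells thinned to 1000 UMIs with a fixed seed, leaving out 28, 4 and 71 shallower cells of the spleen matrices of 1, 3 and 24 weeks. Exact two-sided permutation tests over libraries used scipy 1.17.1. A limit for a count of 0 takes 3 counts and covers counting error only. Doublets were not called, and the cells free of other markers stand in for such a filter.

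Library numbers were taken to pair graft and spleen at 1 and 3 weeks, where the deviations of equal numbers from their group means correlated at 0.145 to 0.304 at 1 week and 0.104 to 0.472 at 3 weeks. These correlations were 0.036 to 0.232 at 24 weeks, overlapping those of 1 and 3 weeks, and -0.043 and -0.035 in rejecting recipients. The best match had another number for libraries 3 and 5 at 3 weeks, for library 1 at 24 weeks and for both rejecting libraries. The main test did not use the pairing, and the term for the library number was run for every graft and spleen pair. Gene coordinates are from GENCODE M21 on GRCm38. The CD45+ matrices of rejecting kidney and naive spleen served for ligands and background gates. The other CD45+ matrices were not used here. Some genes of the lists are counted but not reported by name here.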

Additional observations from a re-analysis of the deposited data

Results flagged for a closer look

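In the levels and thinned shares of groups of 4 to 10 libraries, 42 sets of values were checked for a library far from the rest, and 5 were flagged, where chance flags about 1 in 20. Graft library 1 of the accepted 3-week group had Ccr9 at 7.56 CPM, the others 1.73 to 2.96 CPM, and a Cxcr6 share of 50.6%, the others 43.5% to 45.5%. Graft library 2 of that group had Cx3cr1 at 17.0 CPM, the others 11.2 to 12.4 CPM, and a Cx3cr1 share of 1.48%, the others 1.00% to 1.10%. Spleen library 4 of the accepted 3-week group had a Ccr7 share of 14.9%, the others 20.6% to 21.7%.

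The graft to spleen difference changed between 1 and 3 weeks, by a test of the interaction in edgeR, by 1.17 for Cxcr3, -0.998 for Cxcr4, 1.54 for Cxcr6, 1.09 for Ccr2 and -3.95 for Ccr7 (log2). Between the 3-week pair and the 24-week labels it changed by -3.33 for Cxcr3, 1.84 for Cxcr4, -8.36 for Cxcr6, -3.64 for Ccr2, 8.80 for Ccr7, 9.17 for Ccr9 and -4.61 for Cx3cr1.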

How the results depend on the processing

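Of the values of single receptors under the alternatives, 930 kept direction and side of the threshold, 30 lost a call, 52 gained one and 16 turned sign. Every call of the accepted 3-week graft against spleen was kept under each alternative run, and the term for the library number changed only the calls of Cxcr3 and Cxcr4 at 1 week, where it gave 7 called receptors in place of 5. Of the counts of called receptors, that of the 3-week against naive spleen was 2 when all 9 matrices were fitted together, where Cxcr3 and Ccr7 lost the call. That of the rejecting against the accepted difference was 2 by DESeq2, without the filter and in nondividing cells and 3 in all cells. Signs turned under TMM and DESeq2 for Cxcr3 between the accepted grafts (-0.030 and -0.037), for Cxcr6 between rejecting and accepted grafts (-0.22 in both) and for Ccr9 in the difference of 3 and 1 weeks (-0.040 and -0.097). TMM moved the median of all genes by -0.39, -0.67 and -0.18 there, about the size of these moves. They turned in all cells for Ccr2 at 24 weeks (0.26) and Cx3cr1 in the 3-week against naive spleen (-0.049), in nondividing cells for Cx3cr1 in the difference of 3 and 1 weeks (-0.40) and in cells free of other markers for Ccr9 in the rejecting against accepted difference (-0.13). The cause of the last 4 was not tested. Leaving out each library gave 4 to 7 called receptors at 1 week, 7 at 3 weeks, 6 to 7 at 24 weeks, 5 to 6 in the rejecting pair, 4 to 6 between accepted grafts, 4 between rejecting and accepted grafts, 6 to 7 in the 1-week and 3 to 4 in the 3-week against naive spleen, and 6 to 7, 6, 6 to 7 and 5 to 7 receptors with shares apart in the 4 pairs. Other thinning, seeds and gates gave 5 to 7 (lowest unthinned or gated after thinning), 6 to 7, 5 to 7 (lowest at 500 UMIs or in all cells) and 4 to 7 (lowest at 500 UMIs or gated after thinning). Leaving out 1 library turned the sign of Cx3cr1 between accepted grafts (-0.22 to 0.18, positive without 1-week library 1), and of Cxcr4 (-0.11 to 0.087) and Ccr2 (-0.0050 to 0.38) in the 3-week against naive spleen. Cx3cr1 of the last comparison was not tested in cells free of other markers, where its counts were too low. Depth limits the rejecting spleen most, with 153266 UMIs in its smallest library.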
